A study of Rattus norvegicus with 10 samples.

Results

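The thalamic neuron genes are a set of 9 genes used to mark neurons of the thalamus, namely the transcription factor genes *Tcf7l2*, *Lef1*, *Gbx2* and *Zic1*, the signaling genes *Prkcd*, *Rgs16* and *Ramp3*, the axonal adhesion gene *Ntng1* and the troponin gene *Tnnt1*. They were chosen by gene symbol as known markers, with earlier results of these data known. All 9 had a row among the 12828 genes of the deposited table. The authors deposited it as a filtered table. The methods of the study name an initial minimum of 10 reads per gene, but do not say whether that filter made this table. Every percentage of genes below or above a member thus refers to the genes it lists and not to the whole genome. RNA-seq was carried out on the arcuate nucleus (ARC), a nutrient-sensing nucleus at the base of the hypothalamus, of Wistar rat dams at parturition. Of the 10 dams, 5 were fed folic acid at 5X the recommended amount through pregnancy (5X-FA) and 5 were fed [6*S*]-5-methyltetrahydrofolic acid at the equimolar dose (5X-MTHF), in an otherwise shared AIN-93G diet. All dams were killed on giving birth. The ARC was cut freehand from frozen coronal slices with the third ventricle as the guide. The same slices held part of the mediodorsal thalamic nucleus, which was taken for folate measurements.

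The value used for each gene was the average expression over all 10 libraries, as log2 CPM, in which the reads assigned to a gene are scaled to all reads counted in a library. This is the authors' average, given without a spread. A further 10 columns of values per library are headed only by running numbers, match no label of a dam and were not used. Values per dam or per diet are thus absent here. The methods give an approximate sequencing depth for the libraries, but the values used do not give the total counted in each. The difference between the 5X-MTHF and 5X-FA dams, which the study compared by RNA-seq, was not tested here for any of the 9 genes. The authors' own comparison of these diets was not used. CPM is not divided by transcript length. An order on this scale is an order of reads, not of transcript copies, and is given as a description only. In bulk tissue, fewer cells of a type and less RNA per cell cannot be told apart.

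The thalamus relays sensory, motor and limbic signals to the cerebral cortex, mostly through glutamatergic projection neurons. In its development Wnt signals act through β-catenin and the TCF/LEF transcription factors, and the homeobox factor Gbx2 is needed for relay neurons to form and to extend their axons. Adult relay neurons keep Tcf7l2, which maintains their identity and excitability. None of the 9 genes is restricted to the thalamus. *Tcf7l2* is also expressed in differentiating oligodendrocytes, *Lef1* in brain endothelium, *Zic1* and *Prkcd* in the septum, and *Prkcd* in the central amygdala.

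Reads of all 9 genes were present, at widely differing levels. The CPM ranges given next are descriptive only and do not mark separate sets. The average was between 20 and 40 CPM for 5 genes (*Ntng1*, *Tcf7l2*, *Zic1*, *Prkcd* and *Rgs16*) and under 10 CPM for 4 (*Lef1*, *Ramp3*, *Tnnt1* and *Gbx2*). The median of the 9 genes was an average log2 CPM of 4.50, against 4.94 over all genes of the table. Of the 9, 2 were above the median of the table and 7 below it. From *Gbx2*, the lowest, to *Ntng1*, the highest, the averages spanned 4.82 on the log2 scale, a 28.2-fold range in reads. Summed, the 9 genes came to 178 CPM, and *Ntng1* and *Tcf7l2* together made up 44.1% of that sum.

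**Figure D1:**
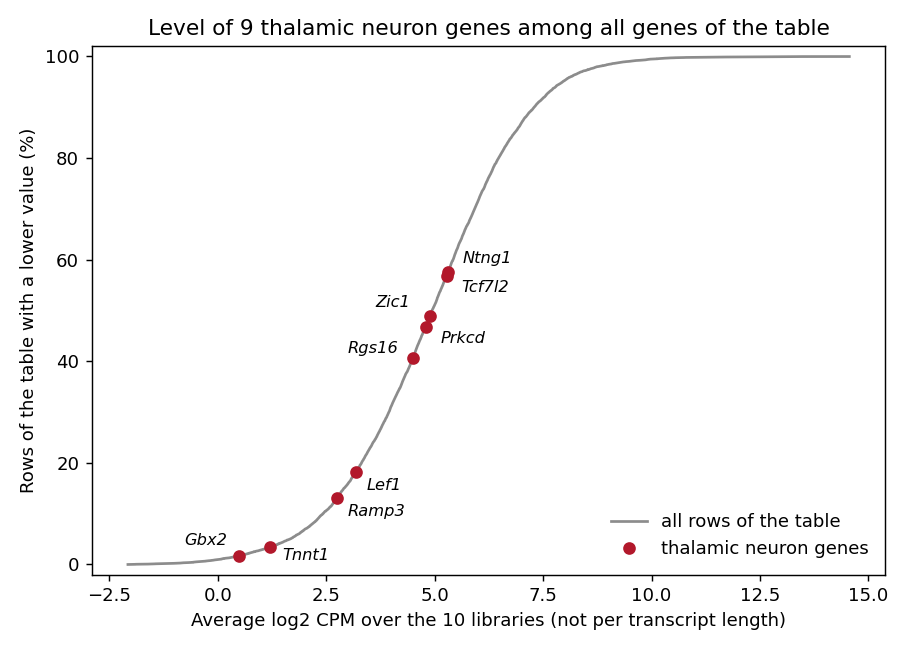
Average log2 CPM over the 10 libraries (x axis) against the percentage of rows of the table with a lower value (y axis), for all 12828 rows (grey line) and the 9 thalamic neuron genes (red points). *Ntng1* and *Tcf7l2* lie just above the middle of the table, *Zic1*, *Prkcd* and *Rgs16* between 40.6% and 48.9%, and *Gbx2* and *Tnnt1* in its lowest 5%.

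Both genes of the TCF/LEF family in the set, which encode HMG-box factors that bind DNA and recruit β-catenin, were measured, with more reads for *Tcf7l2*. *Tcf7l2* (ENSRNOG00000049232, chromosome 1 of Rnor_6.0 from 276659542 to 276730514) had an average log2 CPM of 5.28, or 38.8 CPM, and 56.8% of the genes of the table were lower. *Lef1* (ENSRNOG00000010121, chromosome 2 from 236233239 to 236345056), with a log2 CPM of 3.19 or 9.10 CPM, was above 18.2% of the genes. Of 19 genes listed as partners of these factors in Wnt signaling, 16 had a row, with a median log2 CPM of 4.95, close to the median of the table. The members with the most reads were *Apc*, a scaffold of the complex that degrades β-catenin, at 8.49, *Ctnnb1*, which encodes β-catenin itself, at 8.31, and *Gsk3b*, a kinase of the same complex, at 6.51. The third TCF/LEF gene with a row, *Tcf7l1*, was the lowest member of that list, with a log2 CPM of 2.94. *Axin2*, a transcriptional target of the pathway named here after its value was seen, stood at 4.65.

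The remaining transcription factors differed widely. *Gbx2* (ENSRNOG00000019495, chromosome 9 from 97063728 to 97065817) had the fewest reads of the 9 genes, with a log2 CPM of 0.49, or 1.40 CPM, and 98.3% of the genes of the table were higher. On average a library yields fewer reads of *Gbx2* than of the other 8 genes, so that counting error weighs more on it. *Zic1* (ENSRNOG00000014644, chromosome 8 from 98734295 to 98738446), a zinc finger factor of the dorsal midline, septum and parts of the thalamus, had a log2 CPM of 4.89, or 29.6 CPM, and stood near the middle of the table, above 48.9% of the genes. It was the ZIC gene with the most reads. Of 5 further ZIC and GBX genes listed, 3 had a row. *Zic2* and *Zic4* had log2 CPM values of 4.10 and 3.07. *Zic4* starts 6.86 kb beyond *Zic1* on chromosome 8, its nearest neighbor in the table.

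Of the signaling genes, *Prkcd* and *Rgs16* were among the 5 members between 20 and 40 CPM and *Ramp3* was among the 4 under 10 CPM. *Prkcd* (ENSRNOG00000016346, chromosome 16 from 6655120 to 6675746) encodes protein kinase C delta, an isoform activated by diacylglycerol without calcium. Its log2 CPM was 4.79, or 27.7 CPM, above 46.8% of the genes. All 8 other protein kinase C genes listed had a row, with a median log2 CPM of 6.67, and 6 of them were above the median of the table. Only *Prkcq* (4.54) and *Prkch* (3.03) of the 8 had fewer reads than *Prkcd*. *Prkcb* and *Prkcz* had the most, with log2 CPM values of 7.40 and 7.33.

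*Rgs16* (ENSRNOG00000027024, chromosome 13 from 71179910 to 71185216) encodes a regulator of G protein signaling that speeds GTP hydrolysis by Gi and Gq. It had a log2 CPM of 4.50, or 22.6 CPM, and 40.6% of the genes of the table were lower. Of 9 related R4-family genes, 5 had a row, and each of these 5 had more reads than *Rgs16*, from *Rgs5* at a log2 CPM of 5.35 to *Rgs3*, *Rgs8* and *Rgs4* at 5.59, 7.13 and 7.61. *Rgs8* is also the preceding gene of the table on chromosome 13, ending 38.8 kb before *Rgs16*, and it had 140 CPM against the 22.6 CPM of *Rgs16*.

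*Ramp3* (ENSRNOG00000053766, chromosome 14 from 86922223 to 86939719) encodes a single-pass membrane protein that binds the calcitonin receptor and the calcitonin receptor-like receptor and sets their ligand preference towards amylin or adrenomedullin. Its log2 CPM was 2.74, or 6.70 CPM, above 13.0% of the genes. Its partner receptors had more reads: *Calcr*, the calcitonin receptor, had a log2 CPM of 6.67 and *Calcrl* one of 5.17. The other RAMP genes, *Ramp1* and *Ramp2*, were at 4.51 and 4.37. The ligand genes with a row, *Adm* (adrenomedullin) and *Calca* (calcitonin and CGRP), were low, at 1.23 and 1.09. Thus 4 genes of this list of 8 had more reads than *Ramp3*, 2 had fewer, and *Calcb* and *Iapp* had no row.

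*Ntng1* (ENSRNOG00000031136, chromosome 2 from 212696624 to 212852870) encodes netrin-G1, a lipid-anchored protein on thalamocortical and other axons. It had the most reads of the 9 genes, with a log2 CPM of 5.31, or 39.6 CPM, and 57.6% of the genes of the table were lower. The 4 genes listed with it all had a row, with a median of 6.08. Its paralog *Ntng2* was at 3.46. *Lrrc4c*, whose product is the postsynaptic ligand of netrin-G1, had a log2 CPM of 6.28, and the related genes *Lrrc4b* and *Lrrc4* had values of 7.57 and 5.89.

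*Tnnt1* (ENSRNOG00000028041, chromosome 1 from 72889270 to 72899659) encodes the slow skeletal muscle troponin T and is used as a marker of thalamic neurons in rodent brain. Its log2 CPM was 1.20, or 2.30 CPM, above 3.34% of the genes. Of 7 other troponin genes listed, 4 had a row. *Tnnt2* had the most reads of these, with a log2 CPM of 3.77, followed by *Tnnc1*, *Tnni3* and *Tnnc2* at 1.29, 0.87 and 0.64. *Tnni3* ends 2.78 kb before the start of *Tnnt1*, the closest neighbor of any of the 9 genes.

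The 9 genes lay on 7 chromosomes and all were annotated as protein-coding, each with a single row. *Tnnt1* and *Tcf7l2* shared chromosome 1 at a distance of 204 Mb, and *Ntng1* and *Lef1* shared chromosome 2 at 23.4 Mb. In none of the 9 cases did the span of another gene of the table overlap the member, 0 of 9. Their spans ran from 2.09 kb for *Gbx2* to 156 kb for *Ntng1*. The gene before *Ntng1* on chromosome 2 is *Vav3*, which is itself in the list of other thalamic genes and had a log2 CPM of 4.46.

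RefSeq promoter windows of the GRCr8 assembly, of 250 bases before and 50 bases after the start, matched 8 of the 9 genes by symbol, all but *Zic1*. These windows were mostly rich in G and C. Of the 8, 7 had a higher GC content than the median of all 33469 windows, 51.7%, and the median of the 8 was 65.5%. *Gbx2* and *Tcf7l2* were the richest in CpG dinucleotides, with 44 and 36 of them, more than 98.1% and 94.6% of all windows, respectively. *Ntng1*, with 45.3% GC, was the one window below the median GC content, and *Tnnt1* held the fewest CpG dinucleotides, 4. The TCF/LEF motif, CTTTGAA or CTTTGAT on either strand, was found in 0 of the 8 windows and in 8.73% of all windows, which says only that these letters are not in the stretches searched.

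Other genes that mark thalamic relay neurons had reads as well. Of 15 such genes, 14 had a row, with a median log2 CPM of 5.14 that 54.0% of the genes of the table fell below, and 8 of the 14 were above the median of the table. The highest were *Slc17a6*, the vesicular glutamate transporter of thalamic and hypothalamic neurons, at 8.09, *Calb2* (calretinin) at 7.43 and *Cacna1g*, a T-type calcium channel of burst firing, at 6.96. All 3 are also expressed in the hypothalamus. At the low end of the 14 were *Rorb* at 3.93, *Lhx2* at 3.65, *Synpo2* at 3.55 and *Rora* at 2.34. Markers of the thalamic reticular nucleus, the inhibitory shell of the thalamus, had a row in 5 of 5 cases, with a median of 4.0, led by *Ecel1* at 6.54, *Pvalb* (parvalbumin) at 4.40 and *Isl1*, which arcuate neurons also express, at that median. Of 8 genes of the habenula, which borders the thalamus, 3 had a row: *Tac1* at 5.98, *Nwd2* at 5.13 and *Chrnb3* at 2.88. The others, among them the habenular markers *Gpr151*, *Pou4f1* and *Chrnb4*, had no row in the filtered table.

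The label of the tissue was set against markers of the ARC and of other regions. Of 10 arcuate genes, 9 had a row, with a median log2 CPM of 3.66, and 2 of the 9 were above the median of the table. *Pdyn* (dynorphin), *Cartpt* and *Pomc* had the highest values, 6.61, 6.02 and 4.67. *Agrp*, a defining peptide of arcuate hunger neurons, stood at 1.42, close to *Tnnt1*, and *Kiss1* at 0.08, below *Gbx2*. *Npy* had no row in the filtered table, so its level is not known here. Genes listed for the neighboring ventromedial and lateral hypothalamus had rows in 5 of 5 cases, with a median of 4.54, the value of *Sim1*. *Pmch* (melanin-concentrating hormone) was at 9.24, *Hcrt* (orexin) at 5.68 and *Nr5a1* at 1.88. How specific these genes are to those regions was not tested.

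Genes listed for forebrain regions outside the hypothalamus and thalamus also had reads. Whether these reads came from those regions was not tested. All 7 striatal genes had a row, with a median of 5.37, with *Ppp1r1b* at 7.07 and *Pde10a* at 5.96. Cortical and hippocampal genes had a median of 2.40 over the 5 of 7 with a row. *Slc17a7*, the vesicular glutamate transporter of cortical neurons that some thalamic neurons also use, had a log2 CPM of 7.17, and *Tbr1* and *Neurod6*, which are more specific to cortex and hippocampus, 3.34 and 2.40. The 5 genes of septum and amygdala had a median of 4.09, and 2 of the 5 were above the median of the table. *Sst*, *Nts* and *Trpc4* were at 6.35, 5.07 and 4.09, and *Zic4* and *Lhx6* at 3.07 and 2.71. The joint list of glia and endothelium had the highest median of the 16 lists, 7.26 over 9 of 10 genes. *Mbp*, of myelin, was at 12.59 and *Aqp4*, of astrocytes, at 10.22. The endothelial gene *Cldn5* was at 5.77. The microglial genes *Cx3cr1* and *Aif1*, at 4.46 and 3.83, were below the median of the table. The share of the reads of the 9 thalamic neuron genes that came from thalamic cells was not tested.

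**Figure D2:**
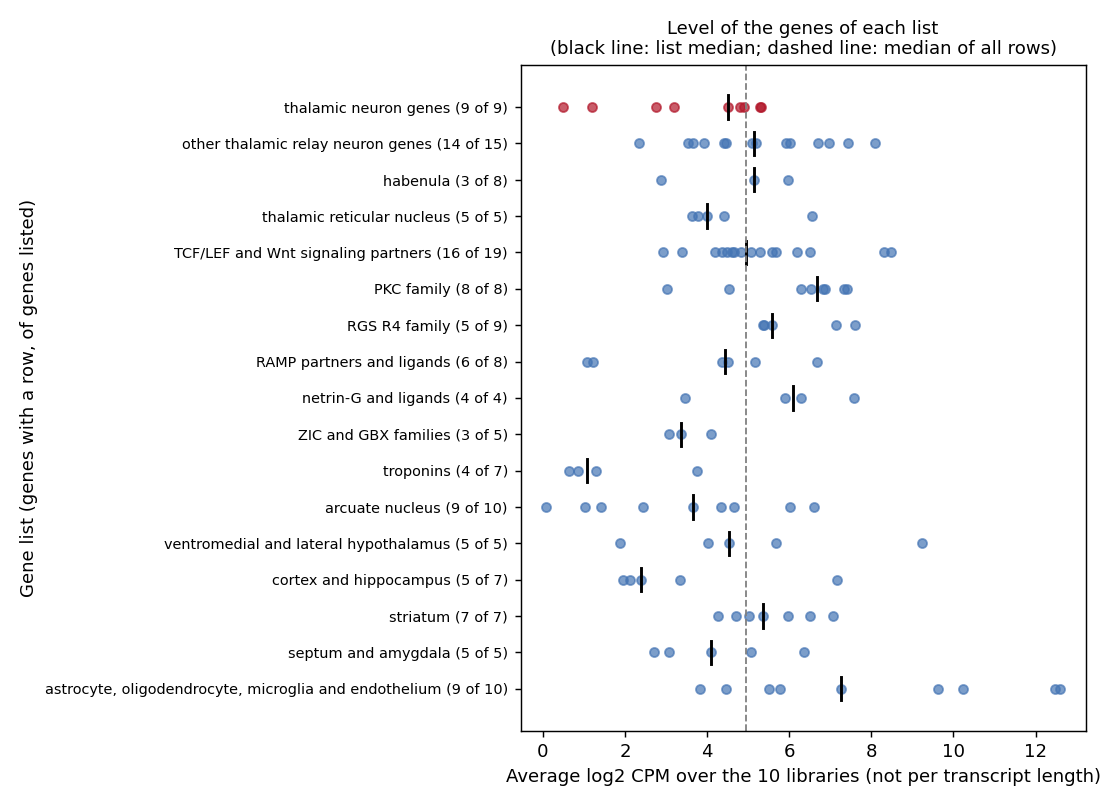
Average log2 CPM over the 10 libraries (x axis) of the genes of each list (y axis, with the number of genes that have a row of those listed). Each point is a gene, the black line is the median of a list and the dashed line the median of all genes of the table; the 9 thalamic neuron genes (red, median 4.50) spread over 4.82 log2 units, and the arcuate list has a median of 3.66.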

How the data were processed

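Per the labels and the methods of the study, poly-A selected libraries from the ARC of 10 dams (5 5X-FA, 5 5X-MTHF) were sequenced as read pairs, and the submitters' processing notes name Trim Galore 0.5.0, STAR 2.6.0c, HTSeq 0.6.1p2 and the genome build Rnor_6.0. The deposited table holds 12828 genes. The one column used is headed logCPM and was taken as the authors' average over all libraries, on a log2 scale. The methods do not say whether logs were taken before or after averaging, or whether a constant was added to low counts. Base 2 was settled from the values, since 2 to the power of this column sums to 1002152, the total that CPM should give. Another 10 columns of per-sample values match no label and were used in no step. A further 4 columns hold the authors' own comparison of the diets (log2 fold change, F, p-value and FDR) and were not used either. The tests planned for values per dam could therefore not be made.

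Computed were the CPM as 2 to the power of the average, the percentage of rows with a lower value, medians over 16 lists of genes, distances between neighboring rows, and the GC and CpG content and motif matches of RefSeq promoter windows (GRCr8). Of 131 listed genes 107 had a row, and 1 gene is in 2 lists. Named are the 9 members, the 3 genes with the highest average of each list, and some others, which were chosen after their values were seen. These others are given for their relation to a member or as lower genes of a list. The values of some genes that this rule selects are not reported here. The members and lists were chosen with earlier results of these data known. The tools were matplotlib 3.10.9, scipy 1.17.1, pandas 2.3.3 and numpy 2.4.6 under Python 3.11.15, and the percentage calculation was tested on simulated data.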

Additional observations from a re-analysis of the deposited data

How the results depend on the processing

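The median over the 9 genes of the percentage of rows with a lower value was 40.6% against all rows. It was 39.0% against protein-coding rows only, and 42.0% over the 8 genes left when rows with an average log2 CPM under 1, *Gbx2* among them, were removed. Against rows with a unique gene symbol it was 40.5%. Relative to their size, the percentages of the lowest members moved most: *Tnnt1* was above 3.34% of all rows, 2.20% of protein-coding rows and 0.51% of rows left after that removal of low rows, and *Gbx2* above 1.71% of all rows and 0.95% of protein-coding rows. The tests of the diets and their alternatives (pseudocounts, filters, rescaling, leaving out each dam) were not run, since no column of values could be matched to a dam. No paired analysis was possible because the columns carry no replicate number of the labels. The study also describes no pairs of dams, which were allocated to the diets at random. A replicate number shared by dams of both diets would thus not by itself make them a pair. The columns of values per library were not used, so no spread between libraries was computed. The counted total of each library is not at hand. No interval is therefore given for any level.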
